A study of Rattus norvegicus with 7 samples.

Results

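Type A intercalated nuclei of the kidney collecting system are described here in single-nucleus RNA libraries of HSRA rats, a strain in which some animals are born with a single kidney. They were chosen by the transcript of Slc4a1, the chloride-bicarbonate exchanger AE1 of the basolateral membrane. A nucleus was taken when it held Slc4a1 at 40 or more per 10000 unique molecular identifiers (UMIs) with 3 or more raw UMIs, and 1 UMI or fewer of Slc26a4, the exchanger pendrin of type B and non-A intercalated cells. The rule found 928 of 30746 retained nuclei, which is 3.02%. Slc4a1 and Slc26a4 made the choice, and their levels are no finding.

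Type A intercalated cells secrete acid into the urine. A proton pump of many subunits, the V-ATPase, works in their apical membrane, carbonic anhydrase supplies protons and bicarbonate, and Slc4a1 returns the bicarbonate to the blood. Type B and non-A cells carry pendrin at the apical side and can secrete bicarbonate, while principal cells of the same epithelium reabsorb sodium and water. Rh glycoproteins carry ammonia across the membranes of type A cells.

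Libraries titled as 1 kidney (3) were compared with libraries titled as 2 kidneys (4), numbers that match the HSRA-S and HSRA-C animals of the labels. All 7 came from archived kidneys of rats aged 4 weeks, cut through the centre so that cortex and medulla were both in the piece, and each library was taken as 1 animal. Sex, surgery and treatment are not stated in the labels. Replicate numbers here are names only. Library names carry P1117 in 5 cases and P1117B in 2-kidney replicates 3 and 4. What that code stands for is not stated, and no 1-kidney library has P1117B.

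Retained nuclei numbered 2250 to 5896 per library, and members 70 to 161. The median member held 1448 UMIs beside 1943 in all retained nuclei. Of all barcodes, 166 occurred in more than 1 library. Of the members 8 had such a barcode, and 0 was a member in both libraries. Slc34a1, the phosphate transporter of the proximal tubule, had a UMI in 89.5% of members, 82.1% of type B and non-A nuclei and 89.6% of other nuclei at 750 UMIs each. This proximal tubule transcript was thus found in most nuclei of every class.

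The label was checked against markers that the rule did not use. Levels are in CPM, the UMIs of a class summed per library and scaled to 1 common total, as mean ± SD over 7 libraries. Adgrf5, an adhesion receptor known from type A cells, was at 3059 ± 698 CPM in members, 46.9 ± 24.1 in type B and non-A nuclei and 155 ± 32.2 in all other retained nuclei. Dmrt2, a transcription factor, was at 469 ± 82.9, 0.864 ± 2.29 and 6.96 ± 1.24 CPM in the same order. Kit, a receptor tyrosine kinase, was at 487 ± 187, 37.3 ± 25.2 and 17.0 ± 5.82 CPM. Each of these 3 genes was higher in members than in both other classes in 7 of 7 libraries. Because a gene of the same nuclei made the choice, such levels are a description with no test.

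Aqp6, a water and anion channel of intracellular vesicles, was at 117, 148 and 162 CPM in 1-kidney replicates 1 to 3. In 2-kidney replicates 1 to 4 it was at 125, 161, 189 and 169.5 CPM. Type B and non-A nuclei held 0 UMIs of it in all 7 libraries, and all other nuclei held 2.04 ± 0.624 CPM. Slc26a7, a basolateral anion exchanger known from type A cells of the outer medulla, was at 680.4, 65.3 and 404 CPM in the 1-kidney libraries and at 262, 798, 610.3 and 658 in the 2-kidney libraries. Replicate 2 of the 1-kidney libraries was the lowest of the 7, and the groups overlapped. In type B and non-A nuclei Slc26a7 stood at 16.4 ± 15.2 CPM.

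Of the markers of type B and non-A cells, Insrr, a receptor kinase that senses alkali, was at 16.6 ± 12.3 CPM in members and 3760 ± 225 in type B and non-A nuclei. Hmx2, a homeobox factor, was at 6.16 ± 6.81 beside 753 ± 198 CPM, and Tldc2 had no UMI in members. Slc4a9, the anion exchanger AE4 usually given as a type B marker, was present in members, at 606 to 1535 CPM. That was below the 1989.9 ± 453 CPM of type B and non-A nuclei in 7 of 7 libraries and above the 68.8 ± 14.9 CPM of other nuclei in 7 of 7. Hepacam2, listed as a type A marker, was lower in members than in type B and non-A nuclei (130.1 ± 27.2 beside 358 ± 56.5 CPM).

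Shares of nuclei with a UMI were compared after thinning to 750 UMIs, which left 836 members (92 shallower ones left out), 591 type B and non-A nuclei and 3000 drawn from the others. Adgrf5 was found in 82.4%, 3.89% and 9.43% of these, and in 92.7% of the members unthinned. Kit was found in 32.8%, 3.21% and 1.47%, and in 48.8% of the members unthinned. Dmrt2 (31.0%, 0% and 0.367%) and Aqp6 (11.2%, 0% and 0.267%) were rare outside the members, and a count of 0 of 591 type B and non-A nuclei allows a share of up to 0.508%. Slc4a9 (48.0%, 68.2% and 2.37%) was shared by the intercalated classes. Unthinned, 49.1%, 24.2% and 63.0% of members held these 3.

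**Figure D1:**
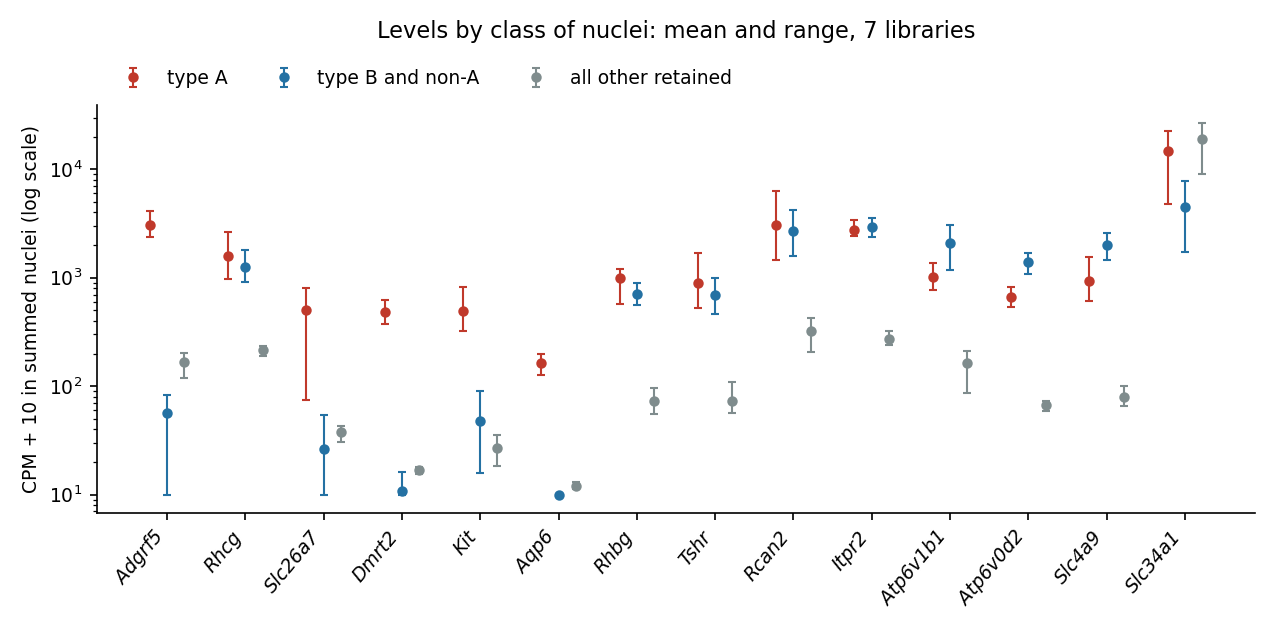
Levels of marker, pump and transport genes in CPM plus 10 (log axis) in summed type A, type B and non-A, and all other retained nuclei; points are means and bars the range over 7 libraries. Adgrf5, Dmrt2, Kit and Aqp6 stand above both other classes, while Slc4a9 and Atp6v1b1 are higher in type B and non-A nuclei, at 1989.9 and 2101 CPM.

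The 15 genes with the highest ratio of the member level to that of all other retained nuclei, among genes at 100 CPM or more in every library, were led by Aqp6 (75.1-fold), Dmrt2 (67.4-fold), Kit (28.7-fold) and Adgrf5 (19.7-fold). Asb15, an ankyrin repeat and SOCS box protein, followed at 19.5-fold, with 324 ± 75.6 CPM in members and 494 ± 105 in type B and non-A nuclei. Rhbg, the basolateral ammonia transporter, was 15.4-fold higher than in other nuclei and at 975 ± 210.1 CPM beside 704 ± 125 in type B and non-A nuclei. Of the 15, 8 were lower in members than in type B and non-A nuclei, at 0.379 (Atp6v1c2) to 0.933 (Itpr2) of the level there.

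Tshr, the thyrotropin receptor, was at 884 ± 414 CPM in members, 688 ± 214 in type B and non-A nuclei and 63.5 ± 17.2 in other nuclei. Itpr2, a calcium release channel of the endoplasmic reticulum, was at 2729 ± 391, 2925 ± 377 and 264 ± 27.9 CPM. Rcan2, an inhibitor of the phosphatase calcineurin, was at 3076 ± 1881, 2688 ± 947 and 310.1 ± 84.7 CPM. For these 3 the intercalated classes differed by less than 1 SD over libraries. Pde1c, a calcium-dependent phosphodiesterase, and Kcnma1, a large-conductance potassium channel, were at 731 ± 282 and 229 ± 72.6 CPM in members and at 1731 ± 478 and 377 ± 144 in type B and non-A nuclei.

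Proton pump transcripts were present in members at lower levels than in type B and non-A nuclei. Atp6v1b1, the B1 subunit of the intercalated cell pump, was at 1009 ± 228 CPM beside 2101 ± 664. Atp6v1g3, the kidney form of the G subunit, was at 172 ± 79.6 beside 791 ± 222, and Atp6v1c2, a C subunit, at 1289 ± 228 beside 3403 ± 375 CPM. Both were lower in members in 7 of 7 libraries. Atp6v0d2, a d subunit of the membrane sector, was at 659.5 ± 97.0 beside 1372 ± 201 CPM, and Atp6v0a4, the a4 subunit, at 1548 ± 417 beside 1826 ± 401. Of the 25 listed subunits 13 were lower in members than in type B and non-A nuclei in 7 of 7 libraries, and 12 were higher than in all other nuclei in 7 of 7. The 25 summed to 6567 ± 982, 12701 ± 816 and 2201 ± 112 CPM in the 3 classes. Foxi1, the forkhead factor that directs intercalated cell fate and pump genes, was at 77.0 ± 27.9, 135 ± 59.4 and 5.34 ± 1.91 CPM. Members deep enough for thinning were also split by Slc4a1 per 10000 UMIs, the value that made the choice. All other transcripts of a nucleus enter the total of that value, so levels over the split are a description with no test. At 40 to 80 per 10000, Atp6v1b1 was at 702 ± 76.5 and Slc34a1 at 22249 ± 10193 CPM. At 160 or more, Atp6v1b1 was at 1471 ± 503 CPM (829 to 2136 over libraries) and Slc34a1 at 5688 ± 2922. The part of proximal tubule transcripts in the lower pump levels of members was not tested.

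Because Foxi1 is a forkhead factor, RefSeq promoter windows (build GRCr8, 250 bases before to 50 after each gene start) were searched for the forkhead core letters TGTTTA on both strands. Of 33469 windows 13.7% held them. Of the 25 pump genes 20 had a window and 2 of these held the letters, and of the 11 type A markers 8 had a window and 0 held them. Both that held them are shown, since they code kidney forms named above. The stretch at Atp6v1b1, chr4:117781326-117781381 on the plus strand, has the match 93 bases before the start. That at Atp6v1g3, chr13:52362082-52362141 on the plus strand, has 2 matches, 234 and 221 bases before it. Capitals mark the matches, which describe letters and not bound sites.
Atp6v1b1: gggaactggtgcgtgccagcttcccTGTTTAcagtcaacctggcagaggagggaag
Atp6v1g3: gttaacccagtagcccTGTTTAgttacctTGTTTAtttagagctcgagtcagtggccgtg

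Transport genes differed between the intercalated classes in both directions. Bsnd, the chloride channel subunit barttin, was at 127 ± 17.2 CPM in members and 200.4 ± 56.5 in type B and non-A nuclei. Clcn3, an endosomal chloride-proton exchanger, was at 166 ± 44.6 beside 878 ± 148 CPM. Both were lower in members in 7 of 7 libraries. Slc12a2, the basolateral sodium-potassium-chloride cotransporter, was higher, at 165 ± 41.9 beside 14.5 ± 3.91 CPM. Rhcg, an ammonia transporter, was at 1590.3 ± 658 beside 1238 ± 353 CPM. Atp1b1, a beta subunit of the sodium pump, was at 1605 ± 324 beside 832 ± 153 CPM, and these 3 genes were higher in members in 7 of 7 libraries. Atp1b1 was below its level in all other nuclei in 6 of 7 libraries. Atp12a, the non-gastric proton-potassium pump, had no UMI in members.

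Among carbonic anhydrases, Car2, the cytosolic form, was at 525 ± 88.0 CPM beside 295 ± 66.4 in type B and non-A nuclei, and Car15, a membrane-anchored form, at 53.0 ± 25.5 beside 10.1 ± 8.23. Ca12, a membrane-bound form, was at 3072 ± 555 beside 9168 ± 1711 CPM, so that the forms did not share 1 direction. Esrrg, an orphan nuclear receptor, was at 2294 ± 839.6 beside 1796 ± 435 CPM, and Tfcp2l1, a factor of intercalated cell patterning, at 1139 ± 513 beside 1301 ± 484. Sctr, the secretin receptor, named after its values were seen, was at 81.2 ± 20.2 CPM in members, 3.11 ± 3.93 in type B and non-A nuclei and 7.65 ± 3.17 in other nuclei.

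Transcripts of other cells were measured among the members. The 15 proximal tubule markers summed to 20936 ± 8134 CPM in members, 7314 ± 2823 in type B and non-A nuclei and 29151 ± 6802 in all other nuclei. In 88 members (9.48%) these markers, Slc34a1 left out, exceeded 3 times the members' median. Those nuclei had a median of 2932 UMIs and a median doublet score of 0.0867, beside 1387 UMIs and 0.0200 in the remaining members. Since Slc4a1 is also band 3 of red cells, erythroid genes were listed, and 10 of 13 are in the files. Of these 6 had no UMI in members, among them Alas2, Rhag and Klf1, and the list summed to 113 ± 36.8 CPM beside 255 ± 134 in all other nuclei. The 9 principal cell markers summed to 639.7 ± 77.6 beside 528 ± 91.1 CPM.

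The members had no gap at the threshold. At 30 to 40 Slc4a1 per 10000 UMIs, just outside it, there were 113 nuclei, with Adgrf5 at 19.5, Slc34a1 at 222 and Aqp6 at 0.504 per 10000. At 40 to 50, just inside, there were 87, with Adgrf5 at 22.8, Slc34a1 at 232 and Aqp6 at 0.958. At 160 or more there were 274, with Adgrf5 at 37.8, Slc34a1 at 60.8 and Aqp6 at 2.21. Nuclei near the threshold thus held less of the type A markers and more of the proximal tubule transcript. Their median depth was 2849 and 2062 UMIs beside 1232 at the top. Since the steps use the value of the rule, whose total holds the other transcripts, this is a description with no test. By 6 other type A genes summed (Adgrf5, Dmrt2, Kit, Aqp6, Slc26a7 and Rhbg), 944 nuclei would be chosen, and 641 of these are members.

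Members differed among themselves in Slc26a7. At 750 UMIs each, 179 of 836 (21.4%) held a UMI of it. The share was 25%, 5.68% and 17.3% in 1-kidney replicates 1 to 3. It was 16.4%, 28.6%, 28.2% and 25.7% in 2-kidney replicates 1 to 4. The groups overlapped, and the lowest share, in 1-kidney replicate 2, rests on 5 of 88 nuclei. Unthinned, it was 9.0% in that library and 26.1% to 45% in the others. Before thinning, the median depth was 1681 UMIs with and 1517 without a Slc26a7 UMI.

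Members with a Slc26a7 UMI were set beside those without, as a description over 1340 genes with 100 or more UMIs. The genes given were picked by their ratio or named after their values were seen. Edn3, the ligand endothelin 3, was at 529 beside 152 CPM in the summed nuclei (3.47-fold, higher in 6 of 7 libraries). Slc12a2 was at 365 beside 118 CPM (3.10-fold, 6 of 7 libraries). Nebl, a nebulin-like actin-binding protein, was at 767 beside 323 CPM (2.38-fold, 7 of 7 libraries). Rhbg was 1.59-fold and Pax2, a kidney transcription factor, 1.67-fold higher, each in 7 of 7 libraries. Slc4a1, which made the choice of members, was 1.54-fold higher, also in 7 of 7 libraries. The ratios pool nuclei over libraries that hold unequal numbers of both kinds, so the mix of libraries enters them. As means over the 7 libraries, Pax2 was at 444 ± 331 CPM with and 302 ± 211 without Slc26a7.

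In the other direction, Pclo, a scaffold protein known from synapses, was at 209 beside 1453 CPM with and without Slc26a7 (6.97-fold lower, in 7 of 7 libraries). Slit2, a guidance ligand, was at 417 beside 1473 CPM (3.53-fold lower, in 6 of 7). Pbx3, a homeobox factor, was 3.94-fold, Egr1, an immediate early gene, 3.24-fold and Defb1, an antimicrobial peptide of the distal nephron, 2.26-fold lower, each in 7 of 7 libraries. Adgrf5 was 1.23-fold lower in 7 of 7, while Aqp6 and Atp6v1b1 had ratios of 0.997 and 0.997. Of the 1340 genes, 20 were higher and 26 lower with Slc26a7 in all 7 libraries, and the number due to chance was not tested. In 1-kidney replicate 2 only 5 nuclei held Slc26a7, so a gene found only in the other members there counts as lower. Slc34a1 was 1.38-fold lower in the pooled nuclei and lower in 6 of 7 libraries, with library means of 9581 and 10586 CPM, and its part in these ratios was not tested. With Slc4a1 at 40 to 80 per 10000, members held Slc26a7 at 293 ± 270 CPM, and at 160 or more 913 ± 441. Rhbg rose likewise from 629 ± 223 to 1652 ± 368 CPM. Adgrf5 rose from 2247 ± 1275 to 3806 ± 415 CPM, although it was lower with Slc26a7. The Slc4a1 level made the choice of members, so levels over its split are a description with no test. Its part in these ratios was not tested.

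**Figure D2:**
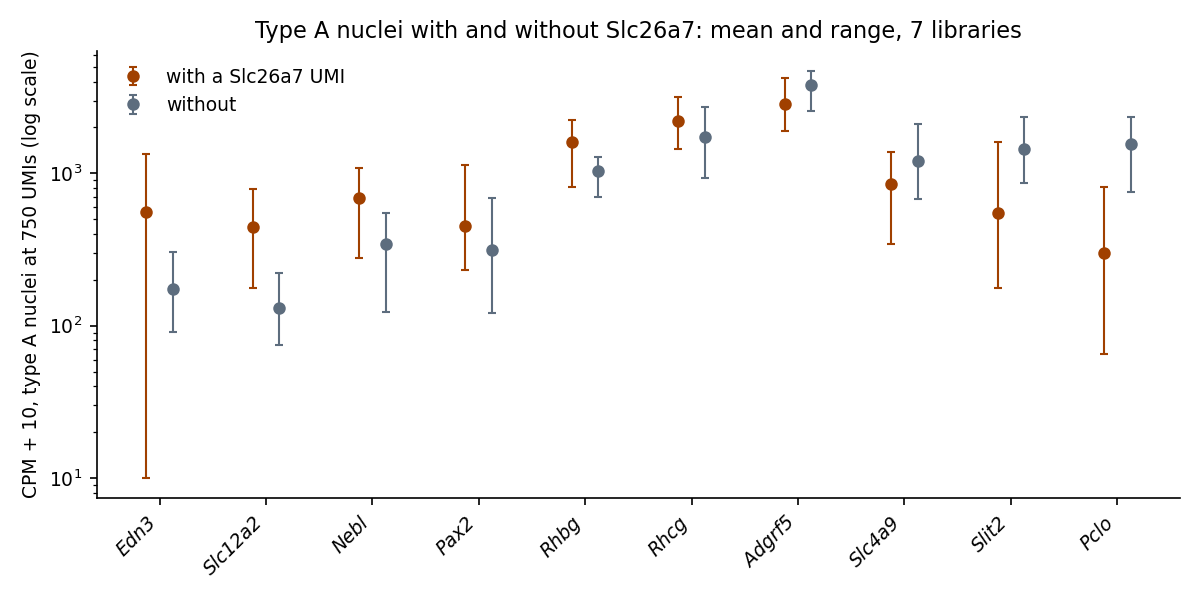
Levels in CPM plus 10 (log axis) of genes in type A nuclei thinned to 750 UMIs, with and without a Slc26a7 UMI; points are means and bars the range over 7 libraries. Edn3, Slc12a2 and Nebl are higher with Slc26a7, and Pclo and Slit2 lower, Pclo by means of 290.3 and 1546 CPM.

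The share of type A nuclei was compared between the groups. Type A nuclei made up 3.11%, 2.29% and 3.72% of retained nuclei in 1-kidney replicates 1 to 3. They made up 4.18%, 3.31%, 2.48% and 2.58% in 2-kidney replicates 1 to 4. The groups overlapped, with means of 3.04% ± 0.717 (SD, n = 3) and 3.14% ± 0.791 (SD, n = 4), and the two-sided exact permutation p was 0.886. The exact Clopper-Pearson 95% interval was 1.87% to 2.78% at the lowest share and 3.57% to 4.87% at the highest, for counting error only. Within set P1117 the exact permutation p was 0.4, where 0.1 is the smallest that 3 against 2 libraries allow. Median Slc4a1 of members was 87.5 and 79.0 per 10000 UMIs in 2-kidney replicates 3 and 4, and 104 to 136 in set P1117. For nuclei chosen without Slc4a1 the shares were 3.56% and 3.70% in those libraries of set P1117B, and 1.88% to 3.10% in set P1117. The share thus depended on the gene that made the choice.

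Of type A plus type B and non-A nuclei, type A nuclei made up 54.7%, 45.5% and 66.5% in the 1-kidney libraries and 67.6%, 71.4%, 54.1% and 58.2% in the 2-kidney libraries. The means were 55.6% ± 10.6 (n = 3) and 62.8% ± 8.07 (n = 4), with an exact permutation p of 0.371 (0.743 adjusted over the 2 shares). Within set P1117 the exact permutation p was 0.2. The difference was smaller than the spread within the 1-kidney group. It was −7.28 percentage points over 7 libraries, −2.23 without 1-kidney replicate 2, −12.8 without 1-kidney replicate 3 and −14.0 without set P1117B. How much cortex and medulla each piece held was not measured.

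Depth differed between the groups. The median member held 888, 1236 and 1304 UMIs in the 1-kidney libraries and 1569, 1750, 1511 and 1700 in the 2-kidney libraries. The groups did not overlap, and the exact permutation p was 0.0286, the smallest that 3 against 4 libraries allow; within set P1117 it was 0.1, also the smallest possible. The difference was not limited to members. The median retained nucleus held 1412, 1642 and 1867 UMIs in the 1-kidney and 1765, 2101, 2060.5 and 2362.5 in the 2-kidney libraries. Those groups overlapped (exact permutation p = 0.0857). Summed over members, the 1-kidney libraries held 94057 to 272301 UMIs and the 2-kidney libraries 280173 to 359113, so values of 1-kidney replicate 1 rest on the fewest.

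**Figure D3:**
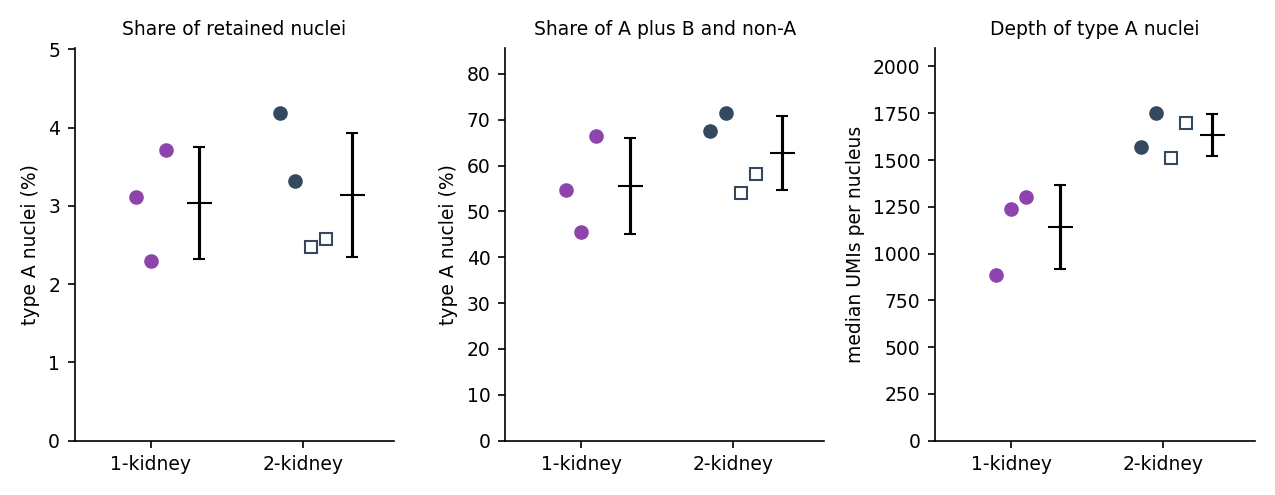
Share of type A nuclei among retained nuclei and among type A plus type B and non-A nuclei (percent), and median UMIs per type A nucleus, by library, with group mean ± SD (n = 3 and 4); open squares are set P1117B. The shares overlap between groups, and the 1-kidney medians, 888 to 1304 UMIs, lie below the 2-kidney ones.

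Between the groups, 1 gene changed in type A nuclei. Slc5a12, a monocarboxylate transporter of the proximal tubule, was at 691, 522 and 463 CPM in 1-kidney replicates 1 to 3 and at 226, 197, 261 and 163 in 2-kidney replicates 1 to 4. Every 1-kidney value was above every 2-kidney value. The log2 fold change, 1-kidney over 2-kidney, was 1.41 ± 0.24 (SE), with an edgeR quasi-likelihood adjusted p of 0.0367. It was the only call among 5615 genes tested, which is 0.0178% of them, and 598 (10.7%) had an unadjusted p under 0.05. The sums do not separate the number of nuclei holding a transcript from the amount in each.

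Proximal tubule transcripts were measured beside this call. Slc5a12 was at 360.3 ± 199.9 CPM in members and 385 ± 116 in all other nuclei, where its log2 fold was 0.72 ± 0.19 (edgeR adjusted p = 0.194). The fold was 0.97 ± 0.28 in type B and non-A nuclei and 1.00 ± 0.31 in nuclei chosen by principal cell markers (edgeR adjusted p = 0.173 and 0.209), and its difference between type A and type B and non-A nuclei was 0.43 ± 0.30 (edgeR adjusted p = 0.994). The 15 proximal tubule markers summed to 28366, 30921 and 24954 CPM in members of the 1-kidney and 22113, 18669, 13252 and 8273 in those of the 2-kidney libraries. All 15 had a fold above 0, with a median of 0.45, while 49.0% of all genes tested were above 0 (median −0.01), and Slc5a12 was the 1 called. Within set P1117 13 of the 15 were above 0, with a median of 0.18, and 5 of 15 were lower in both P1117B libraries than in the 5 others, beside 13.1% of all genes.

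Without the 88 members high in these markers, the fold of Slc5a12 was 1.08 ± 0.25 (edgeR adjusted p = 0.206) and no gene was called. Slc5a12 is itself in the sum that removed them, so this fold is no independent check of the call. The part of these transcripts, and that of the depth of the members given above, in the call over all members was not tested. Thick ascending limb markers lay in the other direction, with 6 of 7 tested below 0 (median −0.61, and −0.89 within set P1117) and 0 called in edgeR (2 at an unadjusted p under 0.05) or DESeq2. Without 2-kidney replicate 1 the adjusted p of Slc5a12 was 0.0049 (edgeR), and without any 1 of the other 6 libraries it was 0.0635 to 0.404.

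The 7 genes next in order with a fold above 0 did not pass in edgeR (adjusted p = 0.154 to 0.158) and passed in DESeq2. They were Adra1a, an alpha-1 adrenergic receptor (1.23 ± 0.25), G6pc, the glucose-releasing phosphatase of gluconeogenesis (1.31 ± 0.27), LOC100362980 (1.26 ± 0.28), Slc4a4, a sodium bicarbonate cotransporter (1.16 ± 0.26), Asl, argininosuccinate lyase (1.31 ± 0.29), Cyp4a8, a fatty acid hydroxylase (1.13 ± 0.25), and Gsta5, a glutathione transferase (1.32 ± 0.30). Cyp4a8 and Gsta5 have close copies in the genome, and their counts are uncertain to that extent. G6pc was at 202, 291 and 286 CPM in the 1-kidney and 142, 131, 92.8 and 65.2 in the 2-kidney libraries, with no overlap. Its fold was 1.59 ± 0.41 in type B and non-A nuclei, 1.30 ± 0.29 in all other nuclei and 2.32 ± 0.38 in nuclei chosen by principal cell markers, and it was called in the last (edgeR adjusted p = 0.0363), where 1 of 5186 genes (0.0193%) was. Of the 7, LOC100362980 (209 beside 187 CPM) and Asl (138 beside 128) had a higher mean level in members than in all other nuclei, and the other 5 a lower one.

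Of the 8 leading genes with a fold below 0, none passed in edgeR. Klhl3, the adaptor that marks WNK kinases for degradation, was at 128, 119 and 132 CPM in the 1-kidney and 301, 251, 318 and 244 in the 2-kidney libraries (−1.11 ± 0.24, edgeR adjusted p = 0.154). Pax2 was at 128, 160.2 and 187 CPM in the 1-kidney and 284, 245, 717 and 698 in the 2-kidney libraries (−1.53 ± 0.35, edgeR adjusted p = 0.16). In both genes every 1-kidney value was below every 2-kidney value, and both passed in DESeq2 (adjusted p = 0.049999 and 0.0287). Klhl3 was at 587 CPM in nuclei chosen by principal cell markers and 237 in all other nuclei, beside 213 in members. The fold of Pax2 was also below 0 outside the members. It was −1.24 ± 0.34 in type B and non-A nuclei and −1.06 ± 0.24 in nuclei chosen by principal cell markers. In all other nuclei it was −0.98 ± 0.20 (edgeR adjusted p = 0.157, 0.156 and 0.194). The fold of Klhl3 was −0.53 ± 0.32, 0.09 ± 0.23 and −0.38 ± 0.20 in the same order. Groups without overlap, the 1-kidney libraries all lower, were found for 5.89% of all genes tested, and all higher for 4.76%.

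Efna5, an ephrin ligand (−1.28 ± 0.32), Ica1, a protein of vesicle traffic (−1.13 ± 0.29), Itpkb, an inositol trisphosphate kinase (−1.11 ± 0.29), Ebf1, a transcription factor (−1.32 ± 0.34), Cd48 (−1.71 ± 0.44) and Cep85l (−2.01 ± 0.52) had an edgeR adjusted p of 0.219. Ica1 was at 429 ± 225 CPM in members beside 66.1 ± 16.8 in other nuclei. Efna5 (150 beside 117 CPM), Cd48 (49.4 beside 32.4) and Itpkb (139 beside 136) had smaller gaps. Ebf1 (146 beside 277 CPM) and Cep85l (45.3 beside 54.9) had a lower mean in members than in other nuclei. In nuclei chosen by principal cell markers Efna5 was at 371 and Itpkb at 578 CPM. Within set P1117 the log2 fold of Pax2 was −0.68 and that of Ica1 −0.74. Klhl3 (−1.12) and Ebf1 (−1.50) did not shrink there (edgeR adjusted p = 0.108 for each). In nuclei chosen without Slc4a1 they were at −0.63 and −0.0379 (edgeR adjusted p = 0.536 and 0.988). Ebf1 was at −0.62 with Slc4a1 at 80 or more and at −0.55 at 20 or more per 10000.

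**Figure D4:**
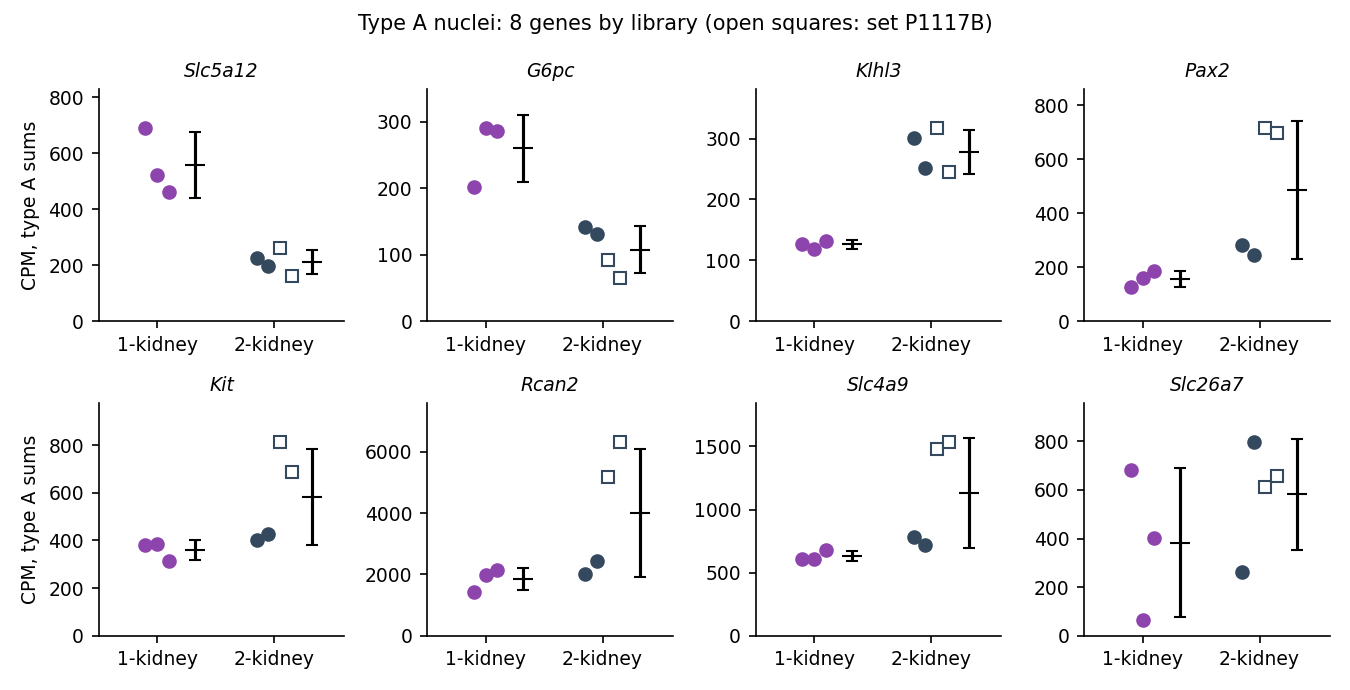
CPM in summed type A nuclei of 8 genes by library, with group mean ± SD (n = 3 and 4); open squares are set P1117B. Slc5a12 is higher and Klhl3 lower in all 1-kidney libraries, and Pax2, Kit, Rcan2 and Slc4a9 are highest in the 2 libraries of set P1117B, Rcan2 at 5172 and 6327 CPM.

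No type A marker was called between the groups. Of 11 listed 8 passed the filter on low counts, and all 8 had a fold below 0, with a median of −0.54 beside −0.01 over all genes tested (3 had an unadjusted edgeR p under 0.05, and DESeq2 called 0). Kit was at 383, 386 and 312 CPM in the 1-kidney and 401, 427, 814 and 688 in the 2-kidney libraries (−0.67 ± 0.27, edgeR adjusted p = 0.411). Rhcg was at 1010, 967 and 1432 CPM in the 1-kidney and 1398, 1308, 2359 and 2657 in the 2-kidney libraries (−0.73 ± 0.27, edgeR adjusted p = 0.396). In both genes the 2 libraries of set P1117B were the highest. The folds of Adgrf5 (−0.44 ± 0.24), Slc26a7 (−0.64 ± 0.44), Dmrt2 (−0.17 ± 0.24) and Aqp6 (−0.11 ± 0.25) did not pass either, and that of Aqp6 turned to 0.04 within set P1117.

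Set P1117B stood apart in several of these genes. Of the 8 markers tested, 4 were higher in both of its libraries than in all 5 others and 0 lower, beside 16.8% and 13.1% of all genes. Within set P1117 the median log2 fold of the 8 was −0.23, with 7 below 0. Rcan2 was at 5172 and 6327 CPM in set P1117B and 1435 to 2449 in the other 5 libraries (−1.07 ± 0.33 over 7 libraries, −0.26 within set P1117). Slc4a9 was at 1478 and 1535 CPM beside 606 to 782, and Tfcp2l1 at 1867 and 1910.2 beside 789 to 882. Slc34a1 went the other way, at 7774 and 4733 CPM beside 13848 to 22410.4. Since both libraries are 2-kidney ones, set and group cannot be told apart in the folds over 7 libraries.

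Of the 25 pump subunits 19 were tested, 7 with a fold above and 12 below 0 (median −0.20), and 0 were called in edgeR (3 at an unadjusted p under 0.05) or DESeq2. Atp6v1g3 was at 149, 77.2 and 95.5 CPM in the 1-kidney and 142, 227, 211 and 303 in the 2-kidney libraries, so that 2-kidney replicate 1 lay among the 1-kidney values (−1.09 ± 0.31, edgeR adjusted p = 0.243). Without that library it was called (−1.26, edgeR adjusted p = 0.0294). Atp6v1h, a regulatory subunit of the cytosolic sector, was at −0.87 ± 0.31 over 7 libraries and −0.32 within set P1117. Atp6v0a4 was at −0.51 ± 0.24, Atp6v0d2 at −0.20 ± 0.22 and Atp6v1c2 at −0.23 ± 0.23. Atp6v1b1 was at 0.13 ± 0.25, and at −0.17 within set P1117.

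**Figure D5:**
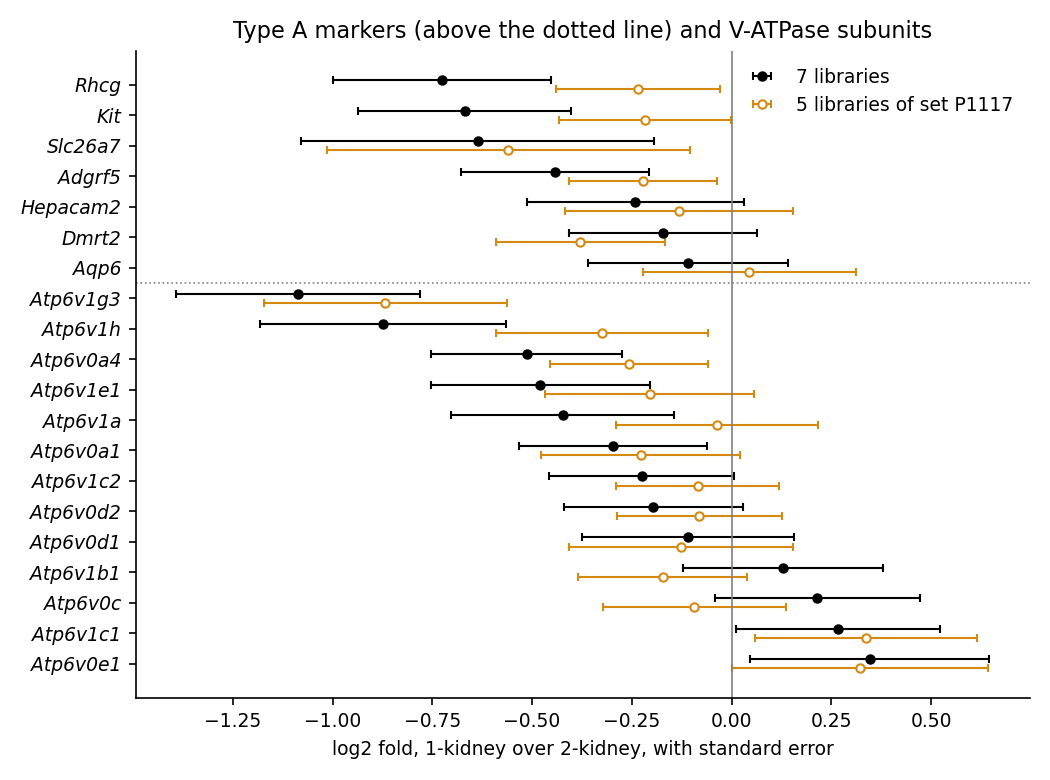
Log2 fold (1-kidney over 2-kidney) with SE of type A markers and V-ATPase subunits at a median of 100 CPM or more, over 7 libraries (filled) and over the 5 libraries of set P1117 (open). Atp6v1g3 is at −1.09 and −0.87, Rhcg at −0.73 and −0.23, and Atp6v1b1 changes sign.

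Of 19 transport genes tested 4 had a fold above and 15 below 0 (median −0.20), and 0 were called in edgeR (5 at an unadjusted p under 0.05), while DESeq2 called Slc4a4. Slc4a9 was at −0.80 ± 0.28, Kcnma1 at −0.60 ± 0.27 and Rhbg at −0.34 ± 0.24. Of 4 carbonic anhydrases tested, Car15 was at 1.10 ± 0.39, Ca8 at −0.82 ± 0.39, Ca12 at −0.19 ± 0.24 and Car2 at −0.05 ± 0.23, and 0 were called (2 at an unadjusted edgeR p under 0.05). Of 11 regulators of intercalated fate and Notch genes 3 were above 0, with 0 called in edgeR (2 at an unadjusted p under 0.05). Rbpj, the DNA-binding partner of Notch, was at −0.94 ± 0.40, Tfcp2l1 at −0.66 ± 0.29 (0.01 within set P1117) and Esrrg at −0.54 ± 0.28 (−0.09 within set P1117).

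All 7 glucocorticoid response genes tested had a fold above 0 (median 0.76), and 0 were called in edgeR (4 at an unadjusted p under 0.05). The 16 listed genes summed to 2866 (1-kidney) and 1884 CPM (2-kidney) in members, without overlap. They summed to 1764 and 1148 CPM in type B and non-A nuclei, with overlap. The sums were 2237 and 1349 CPM in nuclei chosen by principal cell markers, without overlap. In all other nuclei they were 3357 and 2706 CPM, with overlap. In each class 2-kidney replicate 1 was the lowest library, at 1080 CPM in members. Fkbp5, a chaperone induced by the glucocorticoid receptor, was at 372, 469 and 371 CPM in the 1-kidney and 123, 179, 268 and 355 in the 2-kidney libraries, with no overlap (0.85 ± 0.29, edgeR adjusted p = 0.325). Within set P1117 its fold was 1.43 and it was called (edgeR adjusted p = 0.0218). Sgk1, a kinase induced by corticosteroids, was at 159, 231 and 151 CPM in the 1-kidney and 111, 125, 111 and 84.8 in the 2-kidney libraries (0.76 ± 0.26, edgeR adjusted p = 0.34). Nr3c2, the mineralocorticoid receptor, was at 723, 694 and 925 CPM in the 1-kidney and 930.1, 1099, 1628 and 1936 in the 2-kidney libraries, also without overlap (−0.80 ± 0.26, edgeR adjusted p = 0.312). Its 2 highest values were those of set P1117B, and its fold within set P1117 was −0.36. Of 12 acid-base and hormone genes, Nr3c2 among them, 4 were above 0 and 0 called in edgeR (2 at an unadjusted p under 0.05). DESeq2 called 11 genes in all, and none is in the regulator, acid-base, glucocorticoid, carbonic anhydrase, heat shock, growth factor, mitochondrial or cycling lists.

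Of 7 immediate early and heat shock genes 6 were above 0 and 0 called in edgeR (3 at an unadjusted p under 0.05). Within set P1117 4 of the 7 were above 0, and the median went from 0.29 to 0.0275. Hsp90ab1, a cytosolic chaperone, was at 776, 427 and 444 CPM in the 1-kidney and 320.2, 317, 218 and 309.7 in the 2-kidney libraries (0.90 ± 0.25, edgeR adjusted p = 0.243). Of 17 growth factor and receptor genes 4 were above 0 (median −0.58, and −0.30 within set P1117) and 0 called, with 7 at an unadjusted edgeR p under 0.05. Fgfr2, a receptor of fibroblast growth factors, was at −1.18 ± 0.40, Pdgfd, a platelet-derived growth factor, at −1.14 ± 0.44 and Deptor, an inhibitor of mTOR, at −0.79 ± 0.30. Of 15 mitochondrial genes 6 were above 0, with 0 called and 0 at an unadjusted edgeR p under 0.05.

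The 3 cycling genes tested, Cenpf (1.19 ± 0.42), Mki67 (1.30 ± 0.51) and Kif11 (0.92 ± 0.37), had folds above 0 and none was called in edgeR (3 at an unadjusted p under 0.05). All 3 were lower in both P1117B libraries than in the other 5, and within set P1117 their folds were 0.65, 0.64 and 0.50. A UMI of Mki67 or Top2a was found in 26 of 327 members (7.95%) of the 1-kidney and 33 of 601 (5.49%) of the 2-kidney libraries. The shares in all retained nuclei were 9.90% and 5.74%, and those in type B and non-A nuclei 5.84% and 3.01%. Median depth was 1208 and 1622 UMIs in members, 1532 and 2238 in type B and non-A nuclei, and 1671 and 2101 in all retained nuclei. The cycling list summed to 296 ± 136 CPM in members, 82.3 ± 23.2 in type B and non-A nuclei and 88.1 ± 55.8 in nuclei chosen by principal cell markers. In all other retained nuclei it summed to 380 ± 153 CPM, a mean above that of members.

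The 1-kidney effect in type A nuclei was set against that in type B and non-A nuclei of the same libraries. None of 6576 genes differed in edgeR (0%, with 350 or 5.32% at an unadjusted p under 0.05) or in DESeq2. The 5 genes of smallest p all had an edgeR adjusted p of 0.567. They were Ipcef1 (difference of log2 folds −2.32 ± 0.60), Ica1 (−1.01 ± 0.26), Srsf11, a splicing factor (−0.83 ± 0.22), Taf4, a subunit of the general transcription factor TFIID (2.14 ± 0.57), and Slc26a7 (−2.61 ± 0.70). Slc26a7 was at 16.4 CPM in type B and non-A nuclei, so its difference rests on few UMIs there.

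A class of principal nuclei by Aqp2, the vasopressin-regulated water channel, held 18 nuclei and was too small. Nuclei were instead chosen by 8 summed principal cell markers, after the data were seen, and these also held distal convoluted and connecting tubule markers at 8388 ± 1863 CPM, beside 2580 ± 625 in members. By group these markers were at 9367 ± 1173 (1-kidney) and 7654 ± 2085 CPM (2-kidney) in that class, with overlap. The transport list was at 9156 ± 1203 and 6694 ± 381 CPM there, without overlap. The part of the mix of nuclei in that class in the differences below was not tested. Of 6896 genes 2 (0.029%) differed in the 1-kidney effect in edgeR and 0 in DESeq2, with 423 (6.13%) at an unadjusted edgeR p under 0.05. Tacc2, a coiled-coil protein of the centrosome, had a log2 fold of −0.59 ± 0.25 in type A nuclei and 0.62 ± 0.33 in that class, a difference of −1.19 ± 0.23 (edgeR adjusted p = 0.014). Slc8a1, a sodium-calcium exchanger known from the connecting tubule, had −0.86 ± 0.31 and 0.26 ± 0.26, a difference of −1.12 ± 0.22 (edgeR adjusted p = 0.014).

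Tacc2 was at 723, 789 and 1135 CPM in type A nuclei of the 1-kidney and 991, 1604, 1435 and 1421 in those of the 2-kidney libraries. Slc8a1 was at 383, 1080.2 and 929 CPM in the 1-kidney and 1114, 1054, 2281 and 1568 in the 2-kidney libraries, beside a mean over all 7 of 6931 CPM in the other class. In both genes the groups overlapped. Both calls were lost without set P1117B (edgeR adjusted p = 0.348 and 0.128), and without 1-kidney replicate 1 (0.699 for each in edgeR), 1-kidney replicate 3 (0.0713), 2-kidney replicate 1 (0.0639) or 2-kidney replicate 3 (0.37 and 0.377). Tacc2 was also lost without 2-kidney replicate 4 (edgeR adjusted p = 0.063). Klhl3 (−1.20 ± 0.27), Itpkb (−1.43 ± 0.33) and Tmem72 (−1.44 ± 0.36) came next, at an edgeR adjusted p of 0.106 to 0.238.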

How the data were processed

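The authors deposited UMI counts per gene and barcode for 7 libraries. Cell Ranger 7.0 appears in the labels, per the submitters' processing notes; genome build: not given in the sources used here. Barcodes with 200 or more genes, at most 10000 UMIs and at most 5% mitochondrial UMIs were retained (30746 of 37048). The members, gene lists and tests were chosen with earlier results of these data known.

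Counts were summed per library and class. Genes were tested with edgeR 4.0.16 (R 4.3.3; quasi-likelihood, TMM, filterByExpr, Benjamini-Hochberg over all genes tested, threshold 0.05), without Slc4a1 and Slc26a4. Differences of effects had the library as a block. DESeq2 1.42.0 was an alternative. Shares and depth were compared by exact permutation over libraries. On simulated counts the group test recovered 36% of 100 genes changed 2-fold and 83% of 100 changed 4-fold, with 4 false calls (5285 genes). The test against type B and non-A nuclei recovered 8% and 57%, with 1 false call (5530 genes). Its simulated classes were drawn independently, with no library effect shared by both. Recovery in the real test, which has the library as a block, may differ.

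Type B and non-A nuclei were chosen by the mirror of the rule, with Slc26a4. The doublet caller of scanpy 1.11.5 marked at most 4 barcodes per library and had not worked, so doublets were kept; the highest scores at 0.8% per 1000 barcodes would mark 24 members. Named genes were the type A, V-ATPase and transport lists, the 8 of smallest p in each direction, the 5 of smallest p in each difference of effects, the 15 of highest ratio to other nuclei, up to 4 of smallest p of every other list, and the class markers.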

Additional observations from a re-analysis of the deposited data

Results flagged for a closer look

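In 2-kidney replicate 3 the type A nuclei held Hsp90ab1 at 218 CPM, while the other 2-kidney libraries lay between 309.7 and 320.2 CPM. The gap is 0.897 of the group's range, above Dixon's 95% critical value for 4 samples. In all, 53 genes and 7 measures were looked at, and chance alone marks about 1 in 20 groups.

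The 1-kidney effect differed between type A nuclei and nuclei by summed principal cell markers for Tacc2 (difference of log2 folds −1.19, edgeR adjusted p = 0.014) and Slc8a1 (−1.12, edgeR adjusted p = 0.014). For Slc8a1 the difference was −0.44 with Slc4a1 at 80 or more per 10000 and −0.58 at 20 or more, and neither passed (edgeR adjusted p = 0.946 and 0.561).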

How the results depend on the processing

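The difference in the share of retained nuclei (1-kidney minus 2-kidney, −0.0972 percentage points) turned to 0.264 with Slc4a1 at 80 or more per 10000 and to 0.0520 for nuclei chosen by Aqp6, Atp6v0d2 and Atp6v1g3. With each library left out in turn it ran from −0.437 (without 1-kidney replicate 3) to 0.278 (without 1-kidney replicate 2), and it was 0.252 without 2-kidney replicate 1. It was −0.750 for nuclei chosen without Slc4a1, −0.709 without set P1117B and −0.554 after thinning to 1000 UMIs. The share among intercalated nuclei differed by −14.0 (without set P1117B) to −2.23 (without 1-kidney replicate 2) percentage points over its alternatives, below 0 in each. Against 1 gene called between the groups, 31 were called with no filter on low counts, 11 by DESeq2, 0 with Slc4a1 at 80 or more and 2 at 20 or more per 10000, 0 with no upper bound on UMIs, 0 without nuclei high in proximal tubule markers, 2 without set P1117B, 2 with the set as a term and 0 for nuclei chosen without Slc4a1. With each library left out in turn it was 0 to 45, the latter without 2-kidney replicate 1. Against 0 differences to type B and non-A nuclei, 1 was called with no filter, 1 at 20 or more, 1 without set P1117B, and 0 to 3 with each library left out (3 without 2-kidney replicate 4). Against 2 differences to nuclei by principal cell markers, 4 were called with no filter, 0 by DESeq2, 1 at 20 or more, 0 with no upper bound on UMIs, 0 without set P1117B, and 0 to 3 with each library left out. The cause of these changes was not tested. Log2 folds near 0 changed sign: Atp6v1b1 to −0.17 without set P1117B, −0.16 with the set as a term and −0.0802 to 0.26 over libraries left out; Itpr2 to 0.0152 with no upper bound, 0.0978 without nuclei high in proximal tubule markers, 0.0836 without set P1117B, 0.0932 with the set as a term, 0.0845 without Slc4a1 in the choice and −0.20 to 0.00857 over libraries left out. Aqp6 turned to 0.0313 at 20 or more, 0.0448 without set P1117B and 0.0545 with the set as a term, Tshr to 0.0423 and 0.0516 and Tfcp2l1 to 0.0123 and 0.0215 in the last pair of settings. Atp6v0d2 turned to 0.0154 at 80 or more, and Atp6v1c2 to 0.0147 without Slc4a1 in the choice. Of the gene values recomputed, 1071 kept direction and side of the threshold, 40 newly passed, 27 no longer passed and 18 changed sign. Genes were not tested for nuclei chosen by Aqp6, Atp6v0d2 and Atp6v1g3 (34 nuclei) or against nuclei by Aqp2. No paired analysis was possible because the replicate numbers are names in accession order and the labels pair no libraries. Depth limits the 1-kidney values most, above all those of replicate 1.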
